A study of Mus musculus with 2 samples.

Results

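SWI/SNF complexes are multi-subunit machines that use ATP to slide, remodel or evict nucleosomes and so open DNA at promoters and enhancers. Each complex carries one catalytic ATPase, BRG1 (Smarca4) or BRM (Smarca2), with scaffolds of the BAF155 and BAF170 kind (Smarcc1, Smarcc2) and a BAF60 protein (the Smarcd genes). Canonical BAF and PBAF complexes also hold SNF5 (Smarcb1) and an ARID subunit, Arid1a or Arid1b in canonical BAF and Arid2 in PBAF, while a non-canonical BAF complex lacks both. In macrophages these complexes are known for their part in opening a subset of genes that respond to bacterial lipopolysaccharide. The 10 genes described here, Smarca4, Smarca2, Smarcb1, Smarcc1, Smarcc2, Smarcd1, Smarcd2, Arid1a, Arid1b and Arid2, were taken by name, and all 10 were found among the 55450 annotated genes of the deposited tables.

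The RNA came from primary macrophages grown from bone marrow of C57BL/6J mice. Both libraries belong to 1 treatment group. The cells received 100 ng/ml of lipid A, the endotoxin part of lipopolysaccharide, for 12 h, were left for 12 h after its removal, and received 100 ng/ml again for 25 min. The labels call the RNA a nucleoplasmic fraction, and elsewhere a nuclear one, from which ribosomal RNA had been depleted. Replicate 1 started from 500 ng of RNA and replicate 2 from 1 µg, and both carry the same donor entry, so the replicate number and the starting amount cannot be told apart and the spread given below may be technical. Age and sex were not recorded. The labels hold no untreated, single-stimulation or cytoplasmic group, so the values below are levels in 1 state, with no response to lipid A. With 2 libraries the smallest p that an exact two-sided permutation of signs allows is 0.5, so every level is given with its SD (n = 2) and no p-value.

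The gene tables held 20196408 expected counts in replicate 1 and 19588980 in replicate 2, where an expected count is a read share assigned to a gene by a model. Of all genes, 14587 had at least 10 expected counts in both libraries and are called detected, and 11362 of these are protein-coding. All 6 macrophage markers (Adgre1, Csf1r, Cd68, Itgam, Mertk and Lyz2) were above 1 TPM, a level divided by transcript length and scaled to the same total in each library, with summed levels of 3178 and 2764 TPM. The 6 lymphocyte markers summed to 0.31 and 0.26 TPM, with Cd3e and Ncr1 at 0. All 4 neutrophil markers (Ly6g, Cxcr2, Mpo, Elane) were at 0 counts, and the erythroid, mast cell and stromal lists summed to between 1.16 and 3.02 TPM. In each of these 3 lists 1 marker was at 1 TPM or more in both libraries. These were Alas2 (1.52 and 2.95), Kit (1.35 and 1.12) and Pecam1 (2.02 and 1.48). The marker values come from 1 quantification. In another, of kallisto layout, Cd3d had 6.96 and 1.01 TPM and Cxcr2 2.21 and 0.429, while Elane stayed at 0. A count of 0 allows up to 3 counts in a library, a limit that covers counting error only. In bulk RNA such as this, fewer cells of a type and less RNA per cell cannot be told apart.

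All 10 subunit genes were detected and all were at 1 TPM or more in both libraries, a level that 86.7% of detected protein-coding genes reached. Their median was 19.74 TPM in replicate 1 and 16.59 TPM in replicate 2 (18.2 ± 2.23 TPM, SD, n = 2), beside 9.34 and 7.82 TPM for all detected protein-coding genes. The protein-coding median was exceeded in both libraries by 9 of 10, where the share of all detected protein-coding genes was 46.5%. The exception was Smarcd1, at percentile 48.1 in replicate 1 and 52.3 in replicate 2. The members are also long genes, with a median span of 82.9 kb against 23.7 kb for detected protein-coding genes and 7881 annotated exonic bases against 4560.

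**Figure D1:**
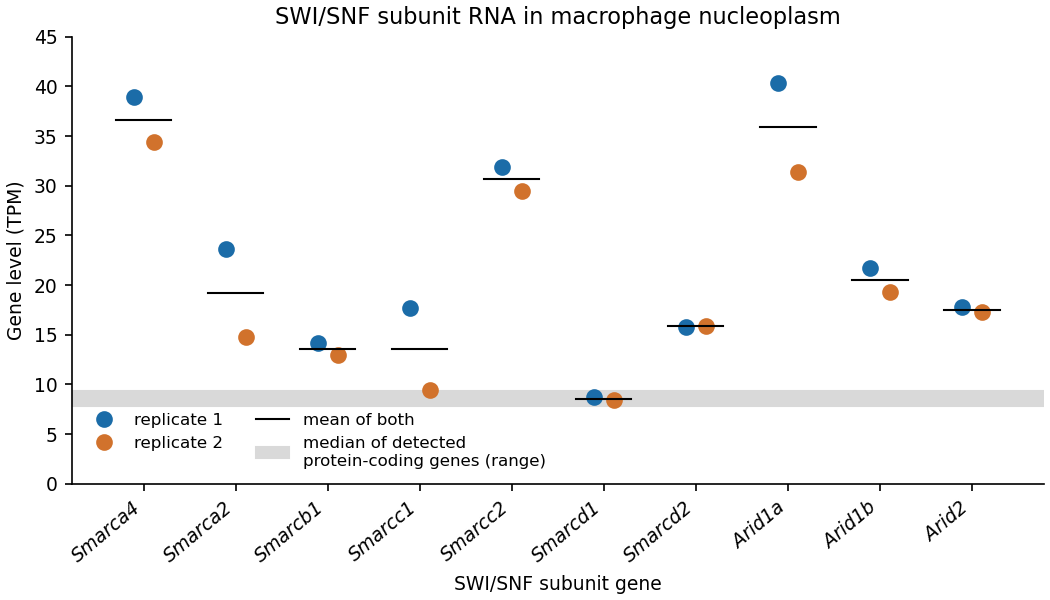
TPM of the 10 SWI/SNF genes in each library (points) with the mean (line) and a grey band for the range of the detected protein-coding median over both libraries. Smarca4 and Arid1a lie highest, at means of 36.65 and 35.9 TPM, and Smarcd1 lies lowest, at 8.57 TPM.

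Ordered by mean TPM, the genes ran Smarca4, Arid1a, Smarcc2, Arid1b, Smarca2, Arid2, Smarcd2, Smarcc1, Smarcb1 and Smarcd1. Only 3 neighbouring steps in that order separated the libraries fully, namely Smarcc2 above Arid1b, Arid2 above Smarcd2, and Smarcb1 above Smarcd1. Arid1a was above Smarcc2 in both libraries although their ranges overlapped. At the other 5 steps the neighbours changed places between the libraries, so their order was not resolved by the replicate spread. The order also depended on the measure. With protein-coding transcripts alone Smarca2 was the lowest of the 10, at 6.83 and 4.6 TPM beside 7.93 and 6.14 for Smarcd1. By reads per kilobase of annotated exon Smarca2 was also the lowest, at 4.36 and 3.49. That scale divides by every annotated exonic base of a gene, 14269 for Smarca2, while the coding Smarca2-209 has 5862. The rank on that scale therefore depends on the number of annotated models and is no independent check.

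The catalytic ATPases came first. Smarca4 (ENSMUSG00000032187.16, GRCm38 chr9:21616169-21704230, plus strand) had 38.94 and 34.36 TPM in replicates 1 and 2, from 4160 and 4139 expected counts. The level was 36.65 ± 3.24 TPM (SD, n = 2), at percentiles 85.5 and 85.8 of detected protein-coding genes. Smarca2 (ENSMUSG00000024921.17, chr19:26605050-26778322, plus strand) had 23.59 and 14.8 TPM, from 1299 and 939 expected counts, a level of 19.2 ± 6.22 TPM (SD, n = 2). Smarca4 was the higher in both libraries and the groups of values did not overlap. The difference of log2(TPM + 1) was 0.70 in replicate 1 and 1.16 in replicate 2 (0.93 ± 0.33, SD, n = 2), so that Smarca4 made up 62.3% and 69.9% of the summed ATPase TPM.

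How far apart the ATPases lay depended on which transcripts were counted. All 4 annotated Smarca4 transcripts are protein-coding. Of the 46 annotated Smarca2 transcripts, 27 are protein-coding, 8 are processed transcripts without an annotated reading frame, 6 are marked for nonsense-mediated decay and 5 retain an intron. Transcripts outside the protein-coding class held 71.0% of Smarca2 TPM in replicate 1 and 68.9% in replicate 2 (70.0 ± 1.53%, SD, n = 2), and 63.8% and 55.5% of its expected counts. Of the 9 members with several transcript classes, Smarca2 alone was above 50% of TPM in both libraries. That mark was passed by 19.3% of the 9143 detected protein-coding genes with several classes. With protein-coding transcripts alone, Smarca2 had 6.83 and 4.6 TPM and the log2(TPM + 1) difference to Smarca4 was 2.50. In the kallisto-layout table, whose values were made directly from the reads, Smarca2 was above Smarca4 in replicate 1 (38.8 against 24.4 TPM) and below it in replicate 2 (4.43 against 5.51 TPM), and the mean difference had the opposite sign (-0.19 ± 0.64, SD, n = 2). Smarca4 was therefore the higher under both quantifications in replicate 2, while in replicate 1 the quantifications gave opposite directions.

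Exon 30 of Smarca2-209 is shown because a decay-marked pair of transcripts, with 12.57 and 6.87 of the 23.59 and 14.8 Smarca2 TPM, lacks it. It is 106 bases long (chr19:26770938-26771043, plus strand) and was read from the GENCODE M21 transcripts on GRCm38, 5′ to 3′, with the exon in capitals and the neighbouring exons in lower case.
Smarca2-209: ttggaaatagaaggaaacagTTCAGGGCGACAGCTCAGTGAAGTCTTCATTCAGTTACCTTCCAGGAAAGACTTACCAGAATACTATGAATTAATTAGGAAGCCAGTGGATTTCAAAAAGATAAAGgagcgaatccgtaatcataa
The annotation places this exon in 33 Smarca2 transcripts, and Smarca2-202 and Smarca2-215 skip it. Among transcripts that span the position, the skipping pair held 64.8% of TPM in replicate 1 and 59.5% in replicate 2, and 59.8% and 50.5% of expected counts. In the kallisto-layout table the same share was 30.8% and 41.0%, below an even split in both libraries. The skipping pair was thus the larger part under one quantification and the smaller part under the other. In the kallisto-layout table the transcripts with the exon summed to 20.4 TPM in replicate 1 and 1.80 TPM in replicate 2. That sum includes Smarca2-217, a short model with 12.1 and 0.482 TPM there and 0 in the other quantification. The share without that model was not computed.

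Smarca2-215 had the highest TPM of any Smarca2 transcript, at 9.35 and 5.06 TPM (7.21 ± 3.03, SD, n = 2), from 334 and 202 expected counts. It is a short model of 2018 bases in 8 exons whose start lies inside exon 25 of Smarca2-209 (chr19:26710458-26710685), and it also lacks exon 29 (chr19:26759878-26759931, 54 bases). Smarca2-202, nearly full in length at 5913 bases, had 3.22 and 1.81 TPM. The full-length coding Smarca2-209 had 2.9 and 2.76 TPM, and it was the steadiest of these transcripts between the libraries. Of the 46 transcripts, 34 lie wholly from the start of Smarca2-215 onward, and they held 60.6% and 56.4% of Smarca2 TPM but 34.5% and 29.1% of its expected counts, since TPM divides by length. One transcript was picked after its values were seen: Smarca2-217, a processed transcript of 968 bases, had a kallisto-layout level of 12.1 and 0.482 TPM but was at 0 in both libraries of the RSEM-layout table.

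For Smarca4, the leading transcripts were Smarca4-204, with 22.89 and 19.91 TPM, and Smarca4-202, with 12.77 and 13.21 TPM. Their coding sequences differ by 12 bases at a pair of junctions, 9 at chr9:21686013-21686021 and 3 at chr9:21699800-21699802, which are shown as the coding difference between the isoforms; the transcripts also differ outside the coding sequence, at 5405 and 6376 bases in all. Capitals mark the bases that Smarca4-204 lacks, and the first pair of lines shows the 9 bases and the second pair the 3 bases.
Smarca4-202: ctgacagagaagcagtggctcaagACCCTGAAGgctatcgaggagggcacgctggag
Smarca4-204: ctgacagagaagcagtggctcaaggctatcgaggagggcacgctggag
Smarca4-202: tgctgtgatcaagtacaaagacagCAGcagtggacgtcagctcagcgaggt
Smarca4-204: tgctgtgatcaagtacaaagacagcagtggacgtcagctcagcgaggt
The shorter form held 64.2% and 60.1% of the pair's TPM (62.2 ± 2.88%, SD, n = 2), and 72.4% and 76.5% in the kallisto-layout table. It was the larger part in both libraries under both quantifications.

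**Figure D2:**
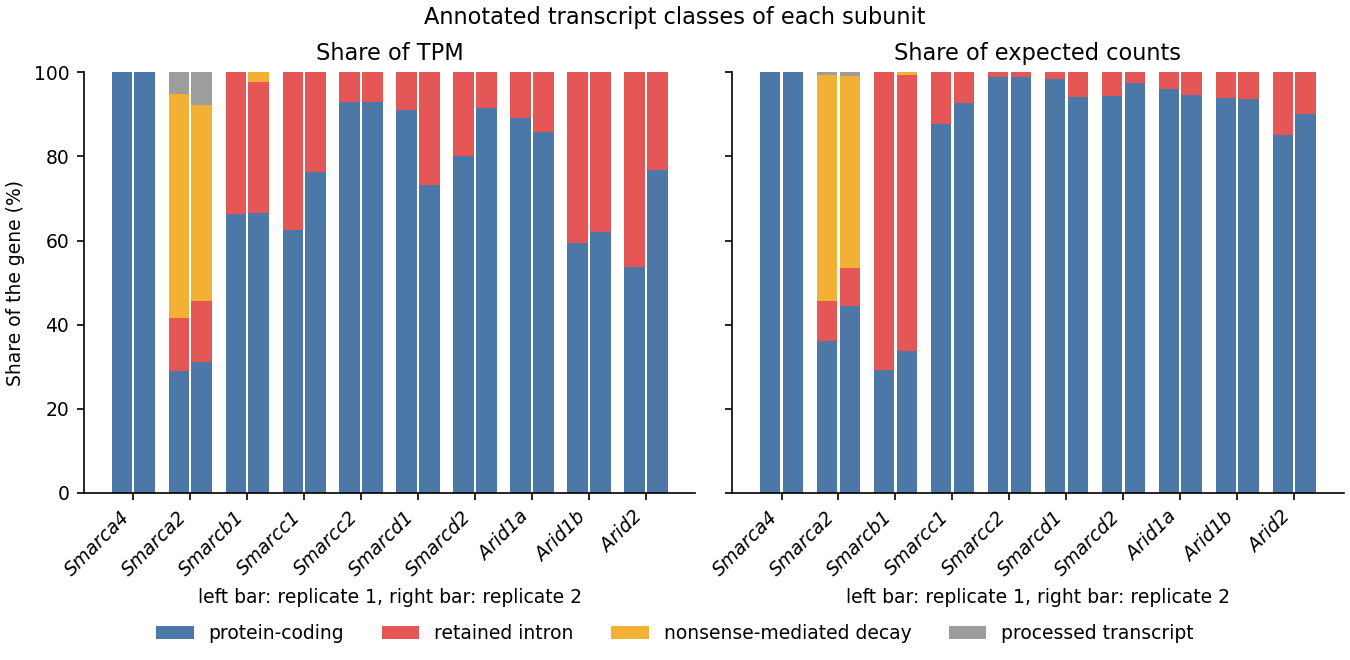
Percent of each gene's TPM (left) and expected counts (right) in protein-coding, retained-intron, nonsense-mediated decay and processed transcripts, with 1 bar per library. Smarca2 has 71.0% and 68.9% of TPM outside the protein-coding class, and Smarcb1 has 70.8% and 65.6% of counts in retained-intron transcripts. Smarca4 has protein-coding models only, so its 0% is fixed by the annotation.

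Smarcb1 (ENSMUSG00000000902.13, chr10:75896769-75921617, minus strand) encodes SNF5, a core subunit that contacts the nucleosome. It had 14.14 and 12.98 TPM (13.6 ± 0.820, SD, n = 2), from 900 and 803 expected counts, at percentiles 61.7 and 64.0. Most of its expected counts were assigned to models that keep introns. Retained-intron transcripts held 70.8% and 65.6% of Smarcb1 expected counts, at percentiles 94.5 and 94.3 of the 6848 detected protein-coding genes with such a transcript, whose medians were 14.4% and 14.9%. By TPM the share was 33.6% and 31.3%, at percentiles 63.0 and 59.2. By counts, 2 of the 9 members with several transcript classes had over 50% outside the protein-coding class in both libraries, Smarcb1 and Smarca2. The background among detected protein-coding genes with several classes was 13.5%.

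The model behind this is Smarcb1-205, 7441 bases long, with 597 and 425 expected counts and 4.16 and 2.69 TPM. It contains all of intron 3 (chr10:75911657-75915063, 3407 bases), all of intron 6 (chr10:75904575-75906029, 1455 bases) and 1379 of the 1579 bases of intron 2. The ends of both whole introns are shown because they are the splice sites left uncut in this model. Sequences are from the GENCODE M21 transcripts on GRCm38, 5′ to 3′ on the minus strand, with intron bases in capitals.
Smarcb1 intron 3 start: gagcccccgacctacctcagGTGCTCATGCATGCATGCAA
Smarcb1 intron 3 end: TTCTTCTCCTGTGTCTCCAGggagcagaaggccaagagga
Smarcb1 intron 6 start: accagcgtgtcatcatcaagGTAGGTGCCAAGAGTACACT
Smarcb1 intron 6 end: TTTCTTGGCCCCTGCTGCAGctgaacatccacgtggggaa
Both introns open with GT and close with AG, the usual splice-site letters. The tables do not separate reads within the retained introns from reads in the exons that Smarcb1-205 shares with the spliced transcripts.

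The spliced coding forms Smarcb1-202 and Smarcb1-201 had 7.07 and 6.64 TPM and 2.31 and 1.99 TPM. They differ by 27 coding bases at the end of exon 2 (chr10:75916773-75916799), which capitals mark here.
Smarcb1-201: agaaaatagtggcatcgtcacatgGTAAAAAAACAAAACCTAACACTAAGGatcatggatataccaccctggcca
Smarcb1-202: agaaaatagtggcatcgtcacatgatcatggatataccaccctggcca
The form without the 27 bases held 75.4% and 76.9% of the pair's TPM (76.2 ± 1.11%, SD, n = 2), the narrowest spread of the 5 isoform pairs described in these TPM, though not in the kallisto-layout table. In the kallisto-layout table it held 62.0% and 57.3%, so it was the larger form throughout but by a smaller margin.

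The scaffolds BAF155 and BAF170 hold the core together. Smarcc2 (ENSMUSG00000025369.15, chr10:128459248-128490482, plus strand), encoding BAF170, had 31.9 and 29.48 TPM (30.7 ± 1.71, SD, n = 2), from 2477 and 2539 expected counts. Smarcc1 (ENSMUSG00000032481.17, chr9:110117708-110240178, plus strand), encoding BAF155, had 17.71 and 9.45 TPM (13.6 ± 5.84, SD, n = 2), from 1182 and 795 expected counts. Smarcc1 was below Smarcc2 in both libraries, with no overlap. The log2(TPM + 1) difference of Smarcc1 from Smarcc2 was -0.81 and -1.54 (-1.18 ± 0.52, SD, n = 2), and Smarcc2 made up 64.3% and 75.7% of the pair. The spread between the libraries came mainly from Smarcc1, the member with the largest ratio between replicates on the TPM scale. Smarcc1 shares 123 exonic bases with Dhx30 on the opposite strand, which had 929 and 902 expected counts. The strand setting of the counting is not given in the sources used here, so reads in those bases cannot be told apart.

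Within Smarcc1, the coding Smarcc1-201 had 8.28 and 5.03 TPM and the retained-intron Smarcc1-209, which is 998 bases inside intron 27 (chr9:110235054-110237818), had 3.37 and 1.81 TPM. Both were lower in replicate 2. Smarcc2 was almost wholly coding, with 7.0% of TPM outside that class in each library. Its leading forms were Smarcc2-201, with 18.51 and 20.3 TPM, and Smarcc2-203, with 9.66 and 6.76 TPM. Smarcc2-203 carries 342 coding bases that Smarcc2-201 lacks (chr10:128488018-128488359), of which the first 60 are shown in capitals after the last shared bases.
Smarcc2-203: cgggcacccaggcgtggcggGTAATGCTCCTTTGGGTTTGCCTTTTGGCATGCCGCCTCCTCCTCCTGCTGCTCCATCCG
The form without the extension held 65.7% and 75.0% of the pair's TPM, and 56.8% and 63.6% in the kallisto-layout table. It was the larger form in each case.

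BAF60 proteins link the complex to transcription factors. Smarcd2 (ENSMUSG00000078619.10, chr11:106263179-106272972, minus strand), encoding BAF60B, which is known for its role in granulocyte development, had 15.79 and 15.92 TPM (15.9 ± 0.0919, SD, n = 2). Smarcd1 (ENSMUSG00000023018.5, chr15:99702129-99713991, plus strand), encoding BAF60A, had 8.73 and 8.4 TPM (8.57 ± 0.233, SD, n = 2). Their expected counts were 658 and 820 for Smarcd2 and 494 and 435 for Smarcd1. In TPM, Smarcd1 was below Smarcd2 in both libraries by more than their spread. The log2(TPM + 1) difference was -0.79 and -0.85 (-0.82 ± 0.04, SD, n = 2), the smallest SD of the 5 pairs in TPM. With TMM-scaled reads per kilobase (RPKM) the SD was 0.32, beside 0.06 for Arid1a minus Arid1b, so that ranking holds for TPM and not for RPKM. Smarcd2 was 64.4% and 65.5% of their sum. Smarcd3, the BAF60C gene known from heart and muscle, had 1.02 and 1.45 TPM and was 3.99% and 5.63% of the BAF60 total.

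The small TPM spread of Smarcd2 did not hold on every scale, since its RPKM was 8.78 and 12.1 and its log2 ratio of replicate 2 over replicate 1 after library scaling was 0.46. Its transcripts also differed between the libraries. Smarcd2-201 had 9.0 and 11.86 TPM and Smarcd2-203 had 3.64 and 2.69 TPM, so that Smarcd2-201 held 71.2% and 81.5% of the pair. Smarcd1-201 had 7.93 and 6.0 TPM. The retained-intron Smarcd1-207, which keeps 338 of the 943 bases of intron 11, had 0.79 and 2.04 TPM from only 7.55 and 22.8 expected counts. Smarcd1 overlaps Gm17349 by 287 exonic bases and Gm34939 by 224 on the opposite strand, but these had 0 counts in both libraries and 3 and 4.09 counts.

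The ARID subunits bind DNA and define the assembly. Arid1a (ENSMUSG00000007880.16, chr4:133679008-133756769, minus strand), encoding BAF250A of canonical BAF, had 40.33 and 31.4 TPM (35.9 ± 6.31, SD, n = 2), from 5607 and 4699 expected counts, the most of any member. Arid1b (ENSMUSG00000069729.14, chr17:4994332-5347656, plus strand), its paralogue BAF250B, had 21.73 and 19.28 TPM (20.5 ± 1.73, SD, n = 2). Arid2 (ENSMUSG00000033237.19, chr15:96287518-96404992, plus strand), encoding BAF200 of PBAF, had 17.75 and 17.26 TPM (17.5 ± 0.346, SD, n = 2). Arid1a was above both in each library with no overlap, and Arid1b was above Arid2 in each library with no overlap.

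The log2(TPM + 1) difference of Arid1a from Arid1b was 0.86 and 0.68 (0.77 ± 0.13, SD, n = 2), and from Arid2 it was 1.14 and 0.83 (0.98 ± 0.22, SD, n = 2). Arid1a held 50.5% and 46.2% of the summed ARID TPM, Arid1b 27.2% and 28.4%, and Arid2 22.2% and 25.4%. With protein-coding transcripts alone, Arid1a had 35.96 and 26.93 TPM, Arid1b 12.91 and 11.95, and Arid2 9.53 and 13.24. Arid1a stayed the highest in both libraries, while Arid1b and Arid2 changed places between them. That change rested on Arid2-202, a coding model of 809 bases with 0.61 and 6.54 TPM. The long coding Arid2-201 alone, at 8.92 and 6.7 TPM, was below the Arid1b values in both libraries.

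**Figure D3:**
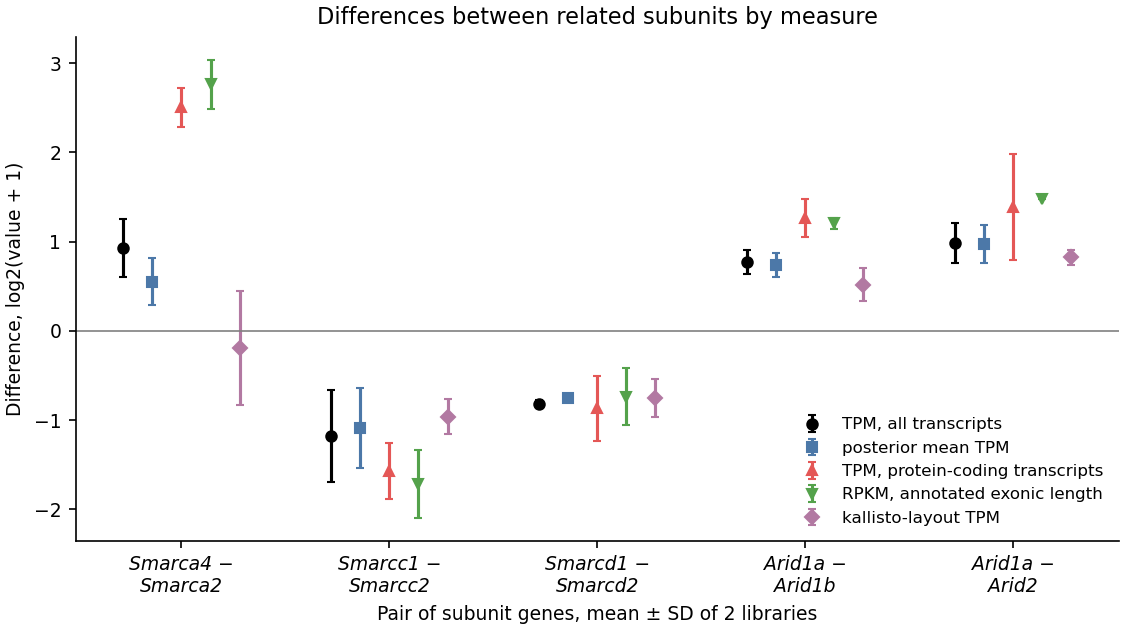
Difference of log2(TPM + 1) for the 5 gene pairs under 5 measures, as the mean (symbol) and SD (bar) of 2 libraries; for RPKM the value takes the place of TPM. Smarcd1 lies below Smarcd2, Smarcc1 below Smarcc2 and Arid1a above Arid1b and Arid2 in the mean of every measure shown, and Smarca4 minus Smarca2 spans -0.19 to 2.76.

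Arid1a rested mainly on 1 transcript, Arid1a-205, with 33.68 and 23.67 TPM and 95.1% and 87.7% of the gene's expected counts. Its share was 83.5% and 75.4% of TPM, and 67.5% and 64.8% in the kallisto-layout table. Arid1b was split. Arid1b-207 had 4.94 and 8.7 TPM, Arid1b-203 had 5.85 and 3.25 TPM, and the retained-intron Arid1b-205, with 616 of the 115803 bases of intron 4, had 7.68 and 5.95 TPM from 132 and 116 expected counts. The order of the coding forms reversed between the libraries, since Arid1b-207 held 45.8% of that pair in replicate 1 and 72.8% in replicate 2. In the kallisto-layout table it held 77.8% and 87.7%. A 90-base exon (chr17:5264032-5264121) that Arid1b-207 has and Arid1b-203 lacks is one of the differences between them and is shown in capitals.
Arid1b-207: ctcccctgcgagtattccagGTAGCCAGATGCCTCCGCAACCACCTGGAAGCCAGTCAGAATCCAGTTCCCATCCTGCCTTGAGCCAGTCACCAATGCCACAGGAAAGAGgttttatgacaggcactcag

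Arid2 had a narrow TPM spread as a gene but not in its transcripts, with 1733 and 1443 expected counts in all. Arid2-201, the long coding form of 8507 bases, had 8.92 and 6.7 TPM and 84.7% and 84.0% of the gene's expected counts. Arid2-202, a coding model of 809 bases, had 0.61 and 6.54 TPM from 7.17 and 88.7 expected counts. The retained-intron Arid2-203, with 796 of the 2586 bases of intron 6, had 5.35 and 2.61 TPM, and Arid2-204, which keeps all of intron 18 (chr15:96391190-96392354, 1165 bases), had 2.88 and 1.41 TPM. The short models move TPM strongly on few reads, and the share of Arid2 TPM outside coding transcripts was 46.3% in replicate 1 and 23.3% in replicate 2, but 14.9% and 9.8% of expected counts.

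Over the 10 genes, 104 transcripts are annotated, 41 of them were at 0 in both libraries, and 24 reached 10% of their gene's mean TPM. Of the 41, 28 were Smarca2 models, and the zeros hold for the RSEM-layout table only. The same shares over all annotated transcripts were not computed, so these numbers describe the members alone. Above 25% of TPM outside the protein-coding class in both libraries were Smarca2, Smarcb1 and Arid1b, 3 of the 9 members with several transcript classes. The background among detected protein-coding genes with several classes was 48.9%. Smarcc2 was the lowest of the 9, while for Smarca4, with protein-coding models only, a share of 0% is fixed by the annotation. The 9 members with an annotated retained-intron transcript had median retained-intron shares of 20.0% and 23.3% of TPM, beside 24.9% and 26.0% for all such genes, and 6.01% and 6.29% of expected counts beside 14.4% and 14.9%. Smarcb1 was the member far above those medians by counts.

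Among the 19 other subunits of these complexes, 16 were detected, and the median was 8.54 and 7.78 TPM (8.16 ± 0.537, SD, n = 2). The highest was Actb, with 1726 and 1461 TPM, which also encodes the actin of the cytoskeleton. Dpf2, a histone-reading subunit of canonical BAF, had 38.26 and 32.48 TPM, and Smarce1, the BAF57 subunit, had 23.28 and 20.83 TPM. With protein-coding transcripts alone, Dpf2 had 7.48 and 6.59 TPM and Smarce1 had 6.49 and 5.1 TPM. Most TPM of both genes thus lay outside that class, as for Smarca2. The PBAF subunits Brd7 and Pbrm1 had 23.87 and 29.26 TPM and 30.5 and 15.89 TPM. Ss18, a subunit of canonical and non-canonical BAF, had 22.09 and 18.52 TPM. With protein-coding transcripts alone, Brd7 had 15.78 and 11.31 TPM, Pbrm1 28.56 and 14.04, and Ss18 13.54 and 10.94. The genes for the neuron-associated subunits Actl6b and Dpf1 and for the muscle-associated Dpf3 were the lowest, with 0 counts in both libraries, 3 and 4 counts, and 0 and 1 counts. Remodelling ATPases of other families, 23 genes in all, had a median of 19.29 and 13.84 TPM. The highest of them by TPM, Atrx (133.63 and 86.24), Chd9 (91.44 and 65.08) and Chd4 (69.89 and 70.4 TPM), were above Smarca4 in both libraries. For Chd9 and Atrx that order depended on the measure. Counting protein-coding transcripts only, Chd9 had 23.21 and 16.29 TPM, below Smarca4 at 38.94 and 34.36. By reads per kilobase of annotated exon, Atrx (25.2 and 18.9) and Chd9 (11.1 and 9.69) were below Smarca4 (30.8 and 33.9). That scale divides by 21757 annotated exonic bases for Atrx, 23148 for Chd9 and 6475 for Smarca4. Chd4 stayed above Smarca4 in both libraries on both of these scales.

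Between the libraries, none of the 10 genes moved past 1.5-fold after scaling by the trimmed mean of M-values (TMM), beside 24.6% of detected genes and 16.5% of genes with at least 100 expected counts in both libraries, which all 10 genes have. The log2 ratios of replicate 2 over replicate 1 ran from -0.43 for Smarcc1 and -0.32 for Smarca2 to 0.46 for Smarcd2. They were below 0 for 7 of 10 genes, where the background was 49.6%, with a median of -0.03. By TMM-scaled kallisto-layout counts 4 of 10 were lower in replicate 2, and the share of all genes on that scale was not computed. On the TPM scale 9 of 10 were lower in replicate 2, beside 70.4% of detected genes. The median log2 TPM ratio was -0.15 beside -0.28 for all detected genes. Smarcc1 (-0.91) and Smarca2 (-0.67) passed 1.5-fold on that scale, which 33.6% of detected genes also did.

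**Figure D4:**
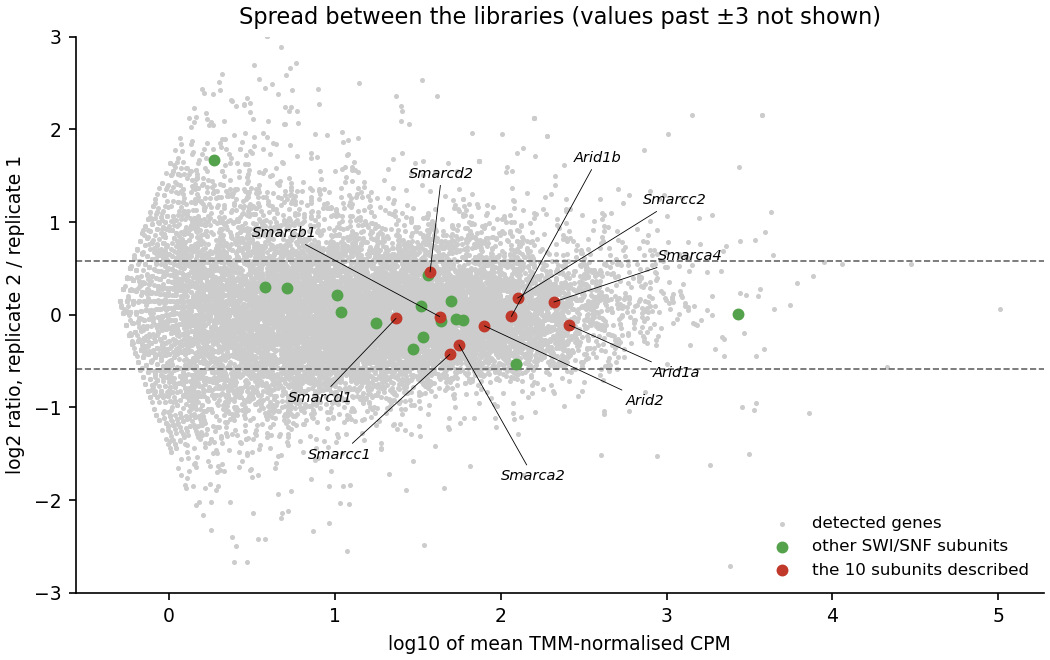
Log2 ratio of replicate 2 over replicate 1 after TMM scaling against log10 mean TMM-scaled CPM (counts scaled to library size) for all detected genes (grey), the other subunits (green) and the 10 genes described (red), with dashed lines at 1.5-fold. All 10 lie between the lines, from -0.43 for Smarcc1 to 0.46 for Smarcd2.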

How the data were processed

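Expected counts and TPM per gene and per transcript were deposited in tables of the layout RSEM writes, made from transcriptome alignments (mm10, GENCODE M21), per the deposited file notes. A posterior mean TPM stands in the same tables, per the file headers. Estimated counts and TPM of kallisto layout, made directly from the reads, were deposited per transcript and summed here per gene. Neither the program nor the strand setting is given in the sources used here. The kallisto-layout TPM of replicate 2 are low throughout, so levels were compared within a library.

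The members and lists were chosen with earlier results of these data known. The text names all members, transcripts with at least 10% of a member's mean TPM, the 6 highest and 3 lowest other subunits and the 3 highest other ATPases. Levels were compared as log2(TPM + 1), which understates differences of low genes. Replicate ratios used expected counts rounded to whole numbers, scaled by TMM (edgeR 4.0.16, R 4.3.3) or DESeq2 1.42.0 size factors, plus 0.5. The scaling was tested on simulated counts. Python 3.11.15, numpy 2.4.6, pandas 2.3.3 and matplotlib 3.10.9 were used. Coordinates, biotypes and sequences came from GENCODE M21 (GRCm38). Alternatives were another quantification, length scale, pseudocount, filter, transcript class and each library left out.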

Additional observations from a re-analysis of the deposited data

How the results depend on the processing

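With 2 libraries an exact test cannot go below p = 0.5, so no difference was tested, and short transcript models rest on few reads. No paired analysis was possible because there is only 1 group, with no samples to match across groups by replicate number; differences between genes were taken within each library. The mean of Smarca4 minus Smarca2 (0.93) changed sign in the kallisto-layout table (-0.19 ± 0.64, SD, n = 2), where the libraries differed in direction. It was -0.17 after rescaling to protein-coding genes, an alternative chosen after seeing the data. The same difference was 0.55 with posterior mean TPM, 2.76 with TMM-scaled reads per kilobase of annotated exon (RPKM) and 2.50 with protein-coding transcripts only. RPKM divides Smarca2 by 14269 annotated exonic bases and Smarca4 by 6475. The cause of the sign change was not tested. With RPKM, Smarcc1 minus Smarcc2 was -1.71, Smarcd1 minus Smarcd2 -0.74, Arid1a minus Arid1b 1.21, Arid1a minus Arid2 1.48 and the median of the 10 genes 8.19. With protein-coding transcripts only, Smarcd1 minus Smarcd2 was -0.87, Arid1a minus Arid1b 1.26, Arid1a minus Arid2 1.39 and the median 12.2 TPM. In the kallisto-layout table, Smarcd1 minus Smarcd2 was -0.75 (-0.88 rescaled), Arid1a minus Arid1b 0.52 (0.55 rescaled) and the median 9.01 TPM (18.4 rescaled). Smarcd1 minus Smarcd2 was -0.75 with posterior mean TPM and -0.88 with a pseudocount of 0.1. Members past 1.5-fold numbered 2 with TPM ratios, and those mainly outside protein-coding transcripts 2 by counts and 3 at 25%. Leaving out a library gave 0.70 to 1.16 for Smarca4 minus Smarca2, -1.54 to -0.81 for Smarcc1 minus Smarcc2, -0.85 to -0.79 for Smarcd1 minus Smarcd2, 0.68 to 0.86 for Arid1a minus Arid1b, 0.83 to 1.14 for Arid1a minus Arid2, 16.59 to 19.74 for the median TPM and 9 to 10 for members above the protein-coding median. That count was 7 against the median of protein-coding genes with at least 100 counts in both libraries. The share of those genes above their own median was not computed. Of the values for single genes, 38 log2 ratios stayed within 1.5-fold and 2 passed it (Smarca2 and Smarcc1, as TPM ratios). The sign of the ratio changed for Smarca4 and Smarcc2 as TPM ratios and for Smarcd1, Arid1a and Arid1b in the kallisto-layout table. Of mean TPM values 36 moved by more than the replicate spread and 14 did not, and of non-coding shares 15 did and 5 did not. The 36 include RPKM, which is another unit, and kallisto-layout TPM, which are low throughout replicate 2. Part of that count is therefore a change of scale, and the same limit applies to the medians of 8.19 and 9.01.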
